A study of Mus musculus with 6 samples.

Results

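The 50 genes described here are effector genes that cells switch on when type I interferon reaches them, followed in the developing mouse heart. They were taken as a named list of interferon-induced genes, and the list was drawn up with the difference between the groups of these libraries already known. All 50 were found among the 25006 genes counted, and all 50 were among the 14815 genes that passed a filter on low counts. RNA was sequenced from heart ventricles of embryos on an NMRI background at embryonic day 17.5. The null-labelled group held 3 libraries, with floxed Prox1 alleles (Prox1f/f) and VecadcreERT2, a Cre recombinase that the VE-cadherin promoter drives in endothelial cells and that tamoxifen activates. The control group held 3 libraries labelled WT. The breeding scheme in the labels mates Prox1 f/f females with VecadCreERT2;Prox1f/f males, so that the exact allele carried by the controls is not settled by the labels. The protocol, listed for every library, gave pregnant females tamoxifen on E13.5 and again on E14.5, each dose being 5 mg for 40 g of weight. The study asked which pathways of the growing heart depend on cardiac lymphatic vessels, whose identity is set by the transcription factor Prox1.

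Type I interferons are secreted proteins that bind a receptor shared by nearly all nucleated cells. The receptor activates the kinases Jak1 and Tyk2, which phosphorylate STAT proteins; these join Irf9 and bind interferon-stimulated response elements, DNA stretches built from repeats of GAAA. The genes switched on in this way encode proteins that bind foreign RNA, block virus entry and budding, starve viruses of nucleotides, or tag proteins with the ubiquitin-like Isg15. In heart tissue, endothelial cells, fibroblasts, cardiomyocytes and resident macrophages can all mount this response.

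Total counts ran from 36216206 to 41408973 in the null-labelled libraries and from 35195544 to 44330594 in the controls. The labels do not say that the libraries came from separate embryos, so p-values measure only the spread between these libraries. Prox1 had 164, 159.8 and 168 CPM (counts scaled to library size, with trimmed mean of M values factors) in the null-labelled libraries, against 149, 143 and 149 CPM in the controls. In whole ventricle the targeted gene was thus higher, not lower, where the label says null (log2 fold change 0.15). Esr1, which shares sequence with the oestrogen receptor part of CreERT2, had 298, 244 and 290 counts in the null-labelled libraries, against 14, 9 and 19 in the controls. Esr1 was thus higher in each library of the group labelled with CreERT2. The direction of every difference below is taken from the labels. Null 1 and null 3 carried counts of the Y-linked Ddx3y together with Xist (2999 and 1798 counts in null 1, 3129 and 5738 in null 3). The main results are also given without null 1 and null 3. Null 2 had 69 Ddx3y and 50586 Xist counts. Control 1, control 2 and control 3 had 3423, 2698 and 55 Ddx3y counts and 28, 29 and 49485 Xist counts. The libraries of each group thus differed in these sex-linked genes, and a part of sex in the levels below was not tested.

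Among the 50 genes, 49 had a log2 fold change above 0 in null-labelled against control ventricles, and the median was 0.51, against -0.0040 over all genes tested. The largest differences were in Ifit1, Ifit3b, Ifit3 and Mx1, which were more than 10 times as high in the null-labelled libraries. Their control levels rest on few counts, from 7 (Ifit3b in control 2) to 28 (Ifit1 in control 1) per library. At the other end, Slfn8 stood at -0.03 and Ube2l6 at 0.05. In 38 of the 50 the lowest null-labelled library was above the highest control, and in 12 the groups overlapped; over all genes tested, 12.7% had all null-labelled libraries above all controls and 13.9% all below. An edgeR quasi-likelihood test with Benjamini-Hochberg adjustment over all genes placed 29 of the 50 below an adjusted p of 0.05, all on the higher side, where 2.43% of all genes stood (5.41% in either direction); the other 21 did not pass. DESeq2 placed 34 there, where it placed 3.64% of all genes, and limma-voom 27, where it placed 2.44%. Leaving out 1 library at a time gave 13 (without null 3), 15 (without control 2 or control 3), 16 (without null 1), 18 (without null 2) and 30 (without control 1). Over all genes, in either direction, these fits called 1.86% without null 3, 2.67% without control 2 and 6.27% without control 3. They called 2.59% without null 1, 1.72% without null 2 and 3.85% without control 1. Of the list, 17 of the 50 were more than 2 times as high, against 0.952% of all genes. Because the genes were chosen with this contrast known, these counts describe the list and carry no test, and nothing is read from them. Just inside the adjusted p of 0.05 was Ifit2 at 0.0477, and just outside it were Parp9 at 0.05005 and Lgals3bp at 0.0626. Among the 21 that did not pass, 9 had groups without overlap: Cmpk2, Shisa5, Parp9, Trim21, Pml, Adar, Slfn5, Lgals3bp and Tdrd7. A gene described below as apart between the groups has therefore not always passed the test.

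**Figure D1:**
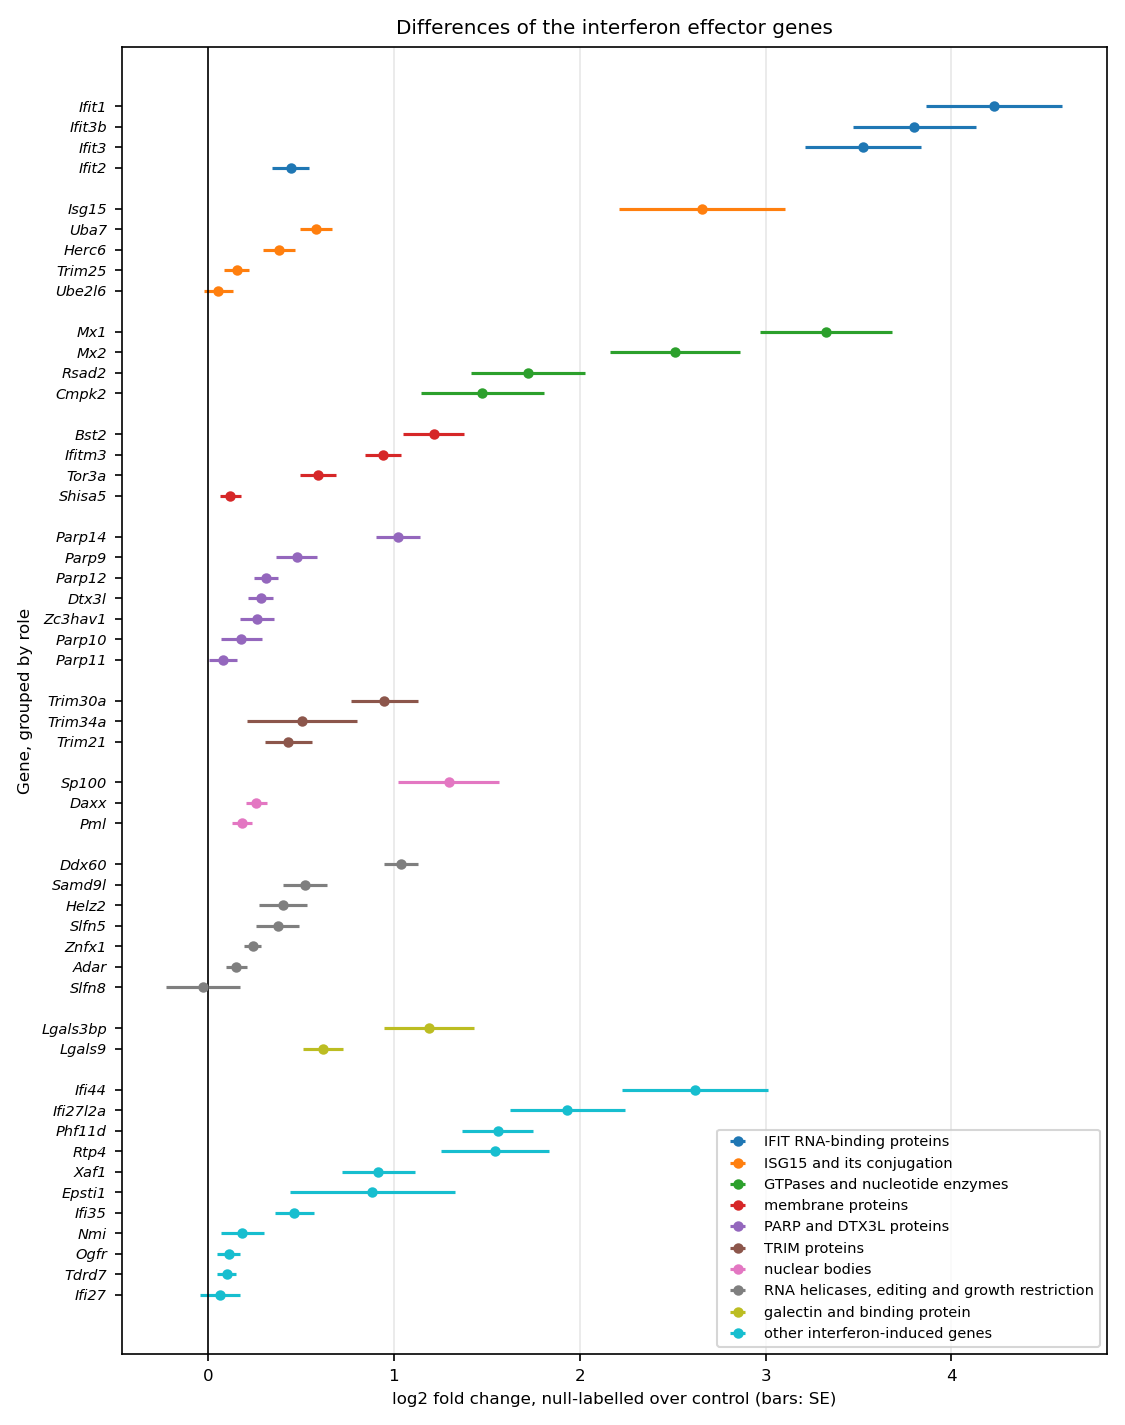
Log2 fold change of each of the 50 genes in null-labelled over control ventricles (x axis), with its standard error as a bar, grouped by role down the page. Ifit1, Ifit3b, Ifit3 and Mx1 lie farthest to the right, and Slfn8 at -0.03 is the one gene left of 0.

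The promoters were read first for the GAAA repeat. The genes were listed as interferon-induced, a class switched on through elements built from this repeat. The shares with a match are therefore not independent of the choice of genes. They describe the list and carry no test. RefSeq promoters of build GRCm38.p6, from 250 bases before to 50 bases after each start, were matched by symbol for 41 of the 50 genes. Promoter entries for Mx1, Mx2, Tor3a, Parp9, Parp10, Parp14, Ifi27, Ifi27l2a and Rtp4 were not used here. The pattern of GAAA, any 2 bases and GAAA again, or TTTC, any 2 bases and TTTC on the other strand, was found in 18 of the 41 (43.9%, 95% Wilson interval 29.9 to 59%), against 3.99% of 27025 genes with a promoter. A longer form, in which the letters CT follow the second GAAA (or AG precedes the first TTTC), was found in 10 of the 41 (24.4%), against 0.303% of all genes. Limited to the 250 bases before the start, the shorter pattern was in 13 of the 41 (31.7%), against 3.46% of all genes. The shares for both forms, and the interval, count Ifit3 and Ifit3b as separate genes. The promoters of Ifit3 and Ifit3b had the same letters over a stretch of 84 bases. TTCNNNGAA, a palindrome bound by pairs of STAT proteins, was in 7 of the 41 (17.1%, interval 8.53 to 31.3%), against 9.55%.

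The following stretches are shown because they carry the pattern in genes whose levels differed most between the groups, or in Bst2, which was abundant in both groups. Capitals mark matches to the shorter pattern on either strand, and overlapping matches run together; the lines lie, in order, at chr19:34640765-34640833 (+), chr19:34583353-34583436 (+), chr19:34607749-34607832 (+), chr4:156200855-156200916 (-), chr12:26456543-26456592 (-), chr8:71537567-71537622 (-) and chr8:61928014-61928086 (+) of GRCm38.p6, each written 5′ to 3′ on the gene's strand.
Ifit1: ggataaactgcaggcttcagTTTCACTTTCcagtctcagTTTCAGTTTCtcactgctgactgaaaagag
Ifit3: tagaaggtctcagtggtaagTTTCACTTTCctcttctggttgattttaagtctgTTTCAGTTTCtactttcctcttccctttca
Ifit3b: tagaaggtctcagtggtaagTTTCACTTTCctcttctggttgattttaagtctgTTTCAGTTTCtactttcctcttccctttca
Isg15: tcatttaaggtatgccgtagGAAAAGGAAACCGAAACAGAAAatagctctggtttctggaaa
Rsad2: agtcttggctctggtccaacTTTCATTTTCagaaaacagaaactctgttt
Bst2: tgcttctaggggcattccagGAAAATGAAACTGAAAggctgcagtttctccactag
Ddx60: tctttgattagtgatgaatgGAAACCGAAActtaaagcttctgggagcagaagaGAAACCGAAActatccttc

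In Ifit1 the matches began 104 and 85 bases before the RefSeq start. Isg15 held 3 overlapping matches, which began 78, 72 and 66 bases before the start, as 1 run of GAAA repeats. Ifit3 and Ifit3b had the same letters at all 84 positions shown. Ddx60 held the same match, GAAACCGAAA, at 53 and at 19 bases before its start. Genes with a match were not uniformly the ones with large differences. The median log2 fold change was 0.78 in the 18 genes with a match, of which 7 were more than 2 times as high, and 0.40 in the 23 with a promoter and no match, of which 5 were. In the 9 genes without a promoter entry, Mx1 and Mx2 among them, the median was 1.02 and 5 were more than 2 times as high. Slfn8, which differed least, held 2 matches, at 48 and 136 bases before its start. A match describes letters and does not show a bound site.

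The IFIT proteins bind foreign RNA; Ifit1 recognises RNA whose 5′ end lacks the host's cap methylation and blocks its translation. Ifit1 (chromosome 19, 34640871 to 34650009, + strand) had 15.99, 7.26 and 11.98 CPM in the null-labelled ventricles, against 0.636, 0.500 and 0.736 CPM in the controls. Ifit3 (chromosome 19, 34583531 to 34588731, + strand), which holds Ifit1 in a complex in human cells, had 6.44, 3.74 and 6.85 CPM in the null-labelled libraries, against 0.614, 0.306 and 0.538 CPM in the controls. Its neighbour Ifit3b (chromosome 19, 34607970 to 34613401, + strand) had 4.30, 2.09 and 3.49 CPM in the null-labelled libraries, against 0.250, 0.194 and 0.255 CPM in the controls. In all 3 genes every null-labelled library was far above every control, and null 2 was the lowest null-labelled library. Expressed as log2 fold changes, the differences were 4.23 ± 0.37 (SE) for Ifit1, 3.52 ± 0.31 for Ifit3 and 3.80 ± 0.33 for Ifit3b. Ifit3 and Ifit3b are uncertain as single genes: 61.8% of the 31-base words of Ifit3 also occur in Ifit3b, and 54.1% of those of Ifit3b in Ifit3. Their summed level was 8.97 ± 2.73 CPM in the null-labelled libraries and 0.719 ± 0.193 CPM in the controls (SD, n = 3 each), a ratio of 12.5 that does not depend on how reads were split between the copies. Ifit2, the fourth member of the cluster, which binds AU-rich RNA, had 48.3, 37.4 and 43.5 CPM in the null-labelled libraries, against 34.4, 31.3 and 29.2 CPM in the controls. The groups did not overlap for Ifit2 either, but its fold of 1.36 stood beside 18.8 for Ifit1 in the same gene cluster, and it was the most abundant of the cluster in control hearts.

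**Figure D2:**
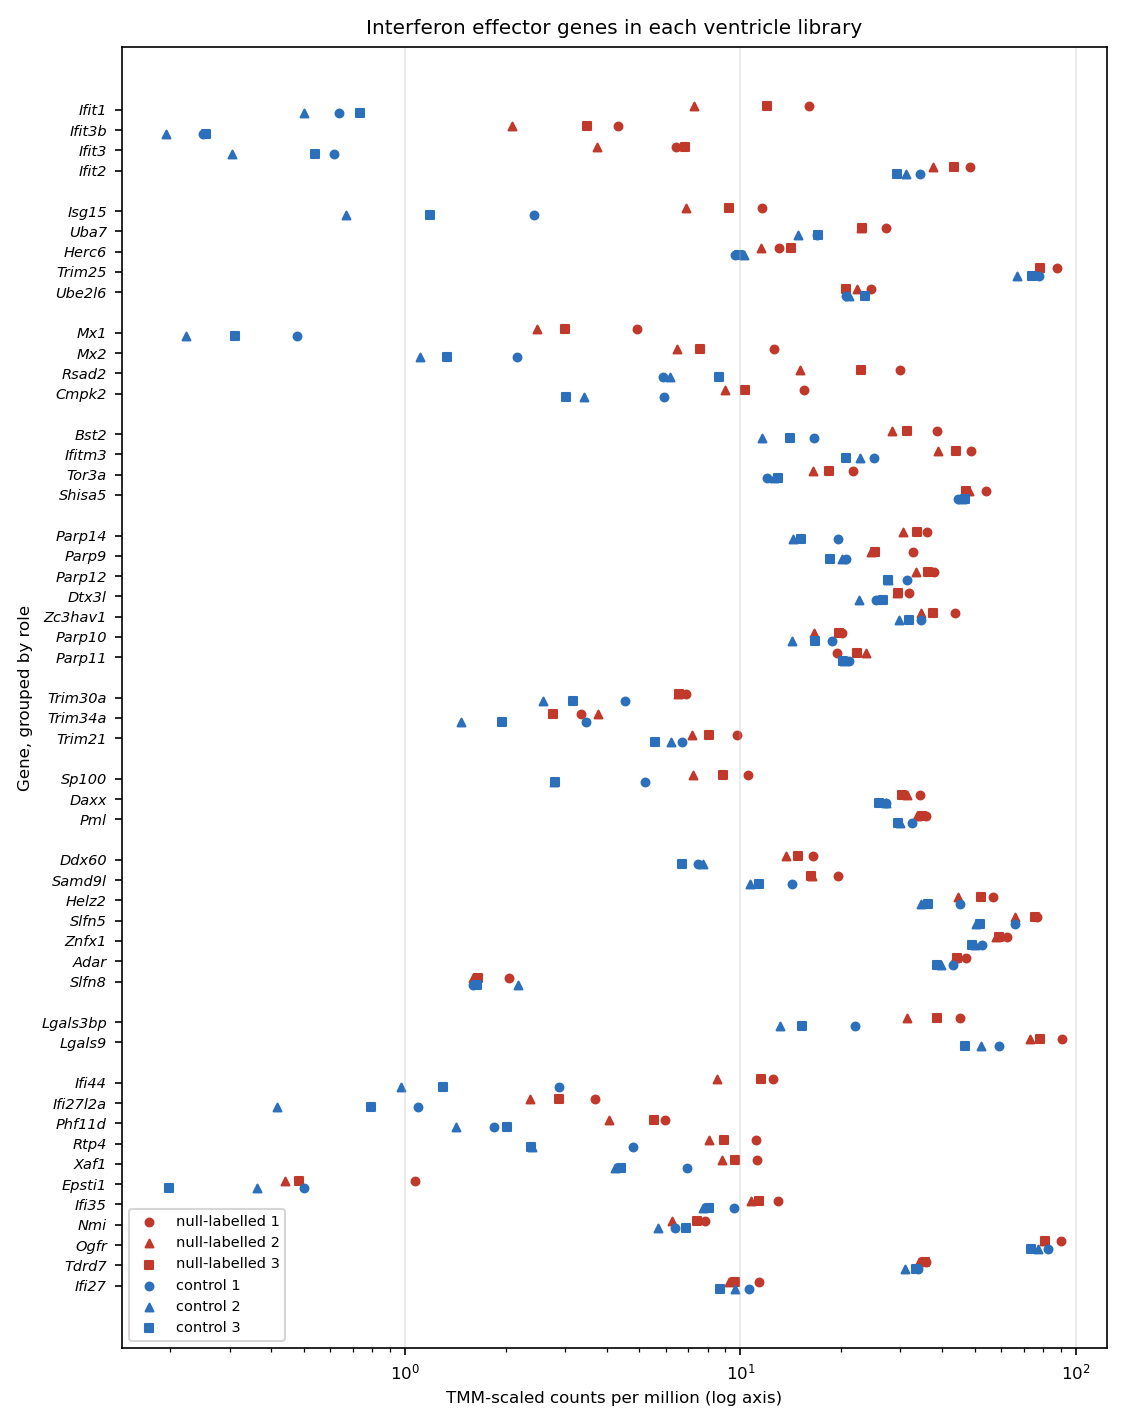
Level of each of the 50 genes in each library, in CPM on a log x axis, grouped by role down the page; each gene has its null-labelled libraries (red) above its controls (blue), with a marker shape for each replicate number. Ifit1 lies between 7.26 and 15.99 CPM in the null-labelled libraries, against 0.500 to 0.736 CPM in the controls.

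Isg15 is a ubiquitin-like protein that is joined to newly made proteins by a chain of enzymes, the activating enzyme Uba7, the conjugating enzyme Ube2l6 and, in mouse, the ligase Herc6. Isg15 (chromosome 4, 156199424 to 156200818, - strand) had 11.6, 6.91 and 9.27 CPM in the null-labelled ventricles, against 2.43, 0.667 and 1.19 CPM in the controls. The groups were apart, although the controls differed among themselves, control 1 being 3.65 times control 2. The log2 fold change was 2.66 ± 0.45 (SE). The enzymes differed by less than their substrate: Uba7 averaged 24.3 ± 2.45 CPM in the null-labelled libraries and 16.3 ± 1.203 CPM in the controls (SD, n = 3 each). Herc6 averaged 12.9 ± 1.32 CPM in the null-labelled libraries and 9.92 ± 0.285 CPM in the controls. Neither overlapped between the groups. Ube2l6 did overlap, at 22.5 ± 1.93 CPM in the null-labelled libraries and 21.7 ± 1.53 CPM in the controls. Trim25, a ubiquitin ligase that acts on the RNA sensor RIG-I and can also ligate Isg15, was likewise overlapping, at 81.2 ± 5.78 CPM in the null-labelled libraries and 72.9 ± 5.52 CPM in the controls.

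Mx1 and Mx2 are dynamin-like GTPases that trap viral nucleocapsids. Mx1 (chromosome 16, 97447035 to 97462907, - strand) had 4.92, 2.48 and 3.00 CPM in the null-labelled ventricles, against 0.477, 0.222 and 0.311 CPM in the controls. Mx2 (chromosome 16, 97535308 to 97560900, + strand) had 12.6, 6.49 and 7.58 CPM in the null-labelled libraries, against 2.16, 1.11 and 1.33 CPM in the controls. For both genes the null-labelled libraries were all above the controls, with null 1 the highest of its group and control 1 the highest of its own. The log2 fold changes were 3.32 ± 0.35 for Mx1 and 2.51 ± 0.35 for Mx2. They share 7.22% of the 31-base words of Mx1, and their summed level gave a ratio of 6.61.

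Rsad2, also called viperin, makes a chain-terminating analogue of CTP, and Cmpk2 is a mitochondrial nucleotide kinase whose gene lies next to it on chromosome 12. Rsad2 (26442746 to 26456452, - strand) had 30.0, 15.0 and 22.9 CPM in the null-labelled libraries, against 5.89, 6.17 and 8.60 CPM in the controls. Cmpk2 (26469204 to 26479837, + strand) had 15.5, 8.97 and 10.3 CPM in the null-labelled libraries, against 5.93, 3.42 and 3.03 CPM in the controls. Neither gene overlapped between the groups. Null 1 had 1.99 times the Rsad2 level of null 2, so the spread within the null-labelled group was wide; the log2 fold changes were 1.72 ± 0.31 for Rsad2 and 1.48 ± 0.33 for Cmpk2.

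Among membrane proteins, Bst2 (tetherin) holds budding virus particles on the cell surface and Ifitm3 hinders fusion of viruses in endosomes. Bst2 (chromosome 8, 71534255 to 71537456, - strand) had 38.5, 28.3 and 31.4 CPM in the null-labelled ventricles, against 16.6, 11.6 and 14.04 CPM in the controls. Ifitm3 had 48.5, 38.8 and 43.8 CPM in the null-labelled libraries, against 24.998, 22.7 and 20.6 CPM in the controls. The groups were apart for both, with log2 fold changes of 1.21 ± 0.16 and 0.94 ± 0.10. For Bst2, null 1 was 1.36 times null 2 and control 1 was 1.43 times control 2; for Ifitm3 these ratios were 1.25 and 1.1. The relative Ifitm2 averaged 51.6 ± 2.06 CPM in the null-labelled libraries and 51.4 ± 3.36 CPM in the controls (SD, n = 3 each), a log2 fold change of 0.01 ± 0.06, with overlapping groups. Tor3a, a torsin ATPase of the endoplasmic reticulum, averaged 18.8 ± 2.62 CPM in the null-labelled libraries and 12.5 ± 0.458 CPM in the controls. Shisa5, an endoplasmic reticulum protein linked to cell death, averaged 49.5 ± 3.70 CPM in the null-labelled libraries and 45.6 ± 1.15 CPM in the controls. Its groups did not overlap, but the lowest null-labelled library, at 46.9 CPM, was almost level with the highest control, at 46.7 CPM.

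The PARP genes encode ADP-ribosyl transferases, and Dtx3l is a ubiquitin ligase that works bound to Parp9. Parp14 had 36.0, 30.5 and 33.6 CPM in the null-labelled ventricles, against 19.5, 14.4 and 15.2 CPM in the controls. Parp9 had 32.7, 24.5 and 25.1 CPM in the null-labelled libraries, against 20.6, 20.03 and 18.5 CPM in the controls. Both were apart between the groups, and their log2 fold changes were 1.02 ± 0.12 and 0.48 ± 0.11. Parp12 and Dtx3l were also apart, at 0.31 ± 0.07 and 0.28 ± 0.07. Parp10, Parp11 and the CpG-RNA-binding antiviral protein Zc3hav1 overlapped, at 0.18 ± 0.11, 0.08 ± 0.08 and 0.26 ± 0.09. Parp9 and Dtx3l overlap on opposite strands over 9.4% and 8% of their exon bases. The strand setting of the counting is not given in the sources used here, so reads there cannot be assigned to one of them.

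The TRIM proteins are ubiquitin ligases, of which Trim21 binds antibody-coated viruses. Trim21 had 9.75, 7.18 and 8.04 CPM in the null-labelled ventricles, against 6.68, 6.22 and 5.58 CPM in the controls. Trim30a, which dampens inflammatory signalling in mouse cells, had 6.89, 6.52 and 6.56 CPM in the null-labelled libraries, against 4.52, 2.58 and 3.17 CPM in the controls. For both the groups were apart, and for Trim30a the null-labelled libraries were nearly level while control 1 was 1.75 times control 2. Trim34a overlapped, with 3.36, 3.77 and 2.76 CPM in the null-labelled libraries and 3.45, 1.47 and 1.95 CPM in the controls. It is uncertain as a single gene, since 48.7% of its 31-base words occur in Trim34b; summed with that copy it averaged 3.84 ± 0.383 CPM in the null-labelled libraries and 2.67 ± 0.786 CPM in the controls.

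Pml, Sp100 and Daxx are proteins of nuclear bodies that silence incoming viral DNA. Pml had 35.8, 33.5 and 34.9 CPM in the null-labelled ventricles, against 32.4, 29.9 and 29.5 CPM in the controls. Sp100 had 10.6, 7.24 and 8.86 CPM in the null-labelled libraries, against 5.18, 2.78 and 2.80 CPM in the controls. The groups were apart in both, by a narrow margin in Pml (fold 1.135) and a wide one in Sp100 (fold 2.45). Daxx averaged 32.0 ± 2.12 CPM in the null-labelled libraries and 26.7 ± 0.748 CPM in the controls, also without overlap.

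Among RNA helicases, RNA editing and growth-restricting genes, Adar, which converts adenosine to inosine in double-stranded RNA, had 47.0, 43.5 and 44.3 CPM in the null-labelled ventricles, against 43.1, 39.7 and 38.5 CPM in the controls. Ddx60 (chromosome 8, 61928087 to 62038244, + strand), a helicase that aids RNA sensing, had 16.4, 13.7 and 14.9 CPM in the null-labelled libraries, against 7.45, 7.72 and 6.71 CPM in the controls. Ddx60 was apart with little spread in either group and a log2 fold change of 1.04 ± 0.09; Adar was apart by a narrow margin, at 0.15 ± 0.06, and 16.8% of its exon bases lie opposite Chrnb2. The helicase Znfx1 and the translation-restricting Samd9l were apart at 0.24 ± 0.05 and 0.52 ± 0.12. Slfn5, of the Schlafen family, was at 0.37 ± 0.12 and did not pass the test (edgeR adjusted p = 0.131). Its groups were apart only by 65.89 CPM in null 2 against 65.86 CPM in control 1. Helz2, a helicase that binds nuclear receptors, overlapped at 0.40 ± 0.13. Slfn8, a mouse Schlafen gene, averaged 1.76 ± 0.243 CPM in the null-labelled libraries and 1.80 ± 0.319 CPM in the controls. Slfn8 shares 19.1% of its 31-base words with Slfn9, whose level was 39.0 ± 6.38 CPM in the null-labelled libraries and 39.9 ± 11.1 CPM in the controls, so its low count is uncertain.

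Lgals9 is a sugar-binding galectin and Lgals3bp a secreted glycoprotein that binds galectins. Lgals9 had 91.0, 73.1 and 77.9 CPM in the null-labelled ventricles, against 58.9, 52.0 and 46.7 CPM in the controls. Lgals3bp had 45.1, 31.3 and 38.5 CPM in the null-labelled libraries, against 21.9, 13.1 and 15.2 CPM in the controls. All null-labelled libraries were above all controls for both, with folds of 1.53 and 2.28.

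Of the remaining interferon-induced genes, Ifi44, a cytoplasmic protein that slows growth of human cells, differed most. Ifi44 (chromosome 3, 151730922 to 151749960, - strand) had 12.5, 8.50 and 11.5 CPM in the null-labelled ventricles, against 2.89, 0.972 and 1.30 CPM in the controls. Its groups were well apart at a log2 fold change of 2.62 ± 0.39, with control 1 at 2.97 times control 2. Ifi27l2a (chromosome 12, 103442167 to 103443680, - strand), a small membrane protein, had 3.68, 2.37 and 2.88 CPM in the null-labelled libraries, against 1.09, 0.417 and 0.792 CPM in the controls. Ifi27, its relative, overlapped at 10.1 ± 1.128 CPM in the null-labelled libraries and 9.66 ± 0.948 CPM in the controls (SD, n = 3 each). The log2 fold changes of these relatives were 1.93 ± 0.31 and 0.06 ± 0.11.

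Rtp4, a receptor chaperone, had 11.2, 8.06 and 8.93 CPM in the null-labelled libraries, against 4.77, 2.39 and 2.38 CPM in the controls. Phf11d, a PHD-finger protein, had 5.94, 4.04 and 5.54 CPM in the null-labelled libraries, against 1.84, 1.42 and 2.01 CPM in the controls. Xaf1, which binds the apoptosis inhibitor XIAP, had 11.2, 8.80 and 9.61 CPM in the null-labelled libraries, against 6.95, 4.22 and 4.42 CPM in the controls. In none of these 3 did the groups overlap, and the folds were 2.92, 2.95 and 1.89. Ifi35 was apart at 11.7 ± 1.15 CPM in the null-labelled libraries and 8.44 ± 0.964 CPM in the controls, while its binding partner Nmi overlapped at 7.18 ± 0.811 CPM in the null-labelled libraries and 6.32 ± 0.606 CPM in the controls. Epsti1 was near the lowest level measured, at 0.665 ± 0.351 CPM in the null-labelled libraries and 0.353 ± 0.151 CPM in the controls, and overlapped. Ogfr, an opioid growth factor receptor, overlapped at a log2 fold change of 0.11 ± 0.06, and Tdrd7, a Tudor-domain protein, was apart by a narrow margin at 0.10 ± 0.05.

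The libraries of a group were not alike for these genes. Null 1 was the highest null-labelled library in 46 of the 50 and null 2 the lowest in 44; over all genes tested, null 1 was highest in 35.1% and null 2 lowest in 33.9%. Control 1 was the highest control in 37 of the 50, against 31.6% of all genes. Summed over the 50 genes, the level was 1407, 1159 and 1254 CPM in the null-labelled libraries, against 998.3, 869.7 and 887.8 CPM in the controls. The sums did not overlap, and null 2, the lowest null-labelled library, was above control 1, the highest control. The median within-group SD on the log2 scale was 0.169 in the null-labelled libraries and 0.183 in the controls, against 0.0724 and 0.0868 over all genes without a 0. Genes of the list are not replicates of each other, and a library that is high for one can be high for many.

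**Figure D3:**
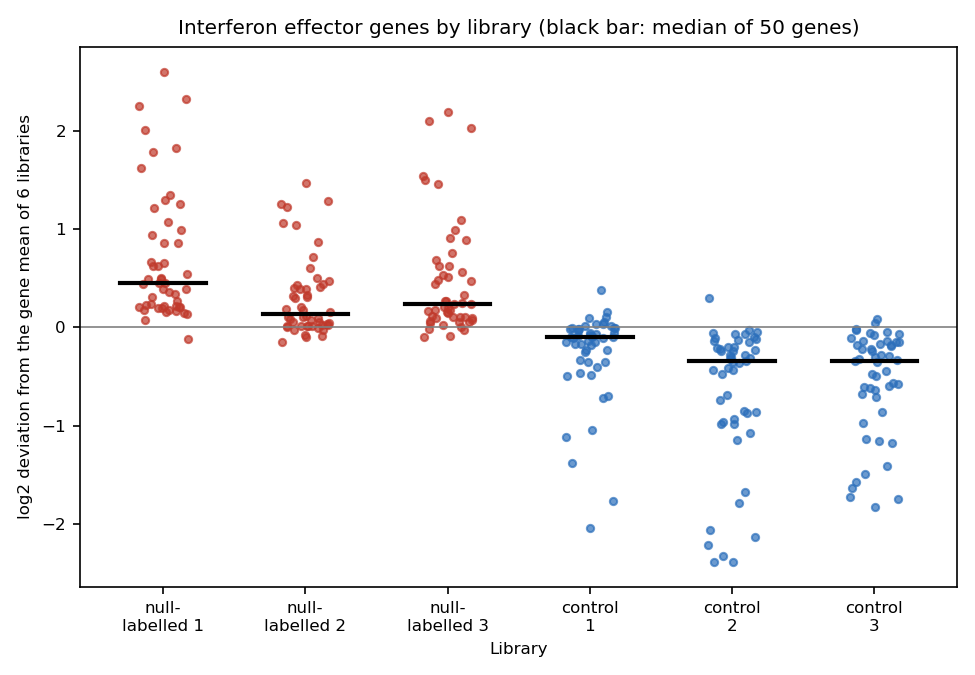
Log2 deviation of each of the 50 genes from its mean over the 6 libraries (y axis), by library (x axis), null-labelled libraries on the left, with a black bar at the median. The medians are 0.45, 0.14 and 0.24 in null 1, 2 and 3 and -0.10, -0.34 and -0.34 in control 1, 2 and 3.

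Levels were compared between genes per transcript length, in TPM (counts divided by exon length and scaled to library size). The median of the 50 genes in control hearts was 12.4 TPM, against 20.999 TPM over all genes tested with a length. Ifitm3 was the most abundant in both groups, at 267 TPM in the null-labelled libraries and 137 TPM in the controls. Mx1 was the lowest in control hearts, at 3.79 TPM in the null-labelled libraries and 0.363 TPM in the controls. The order of the genes differed between the groups: Isg15 ranked 8 in the null-labelled libraries and 29 in the controls, and Ifit1 ranked 27 in the null-labelled libraries and 47 in the controls.

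The genes that were scarce in control hearts were those with the larger differences. The median log2 fold change was 3.56 for the 2 genes below 0.5 TPM in controls, 2.04 for the 8 genes from 0.5 to 2 TPM, 0.93 for the 6 from 2 to 5 TPM and 0.39 for the 34 at or above 5 TPM. The 2 lowest were Ifit3b, with 11, 7 and 9 counts in the controls, and Mx1, with 21, 8 and 11. The level of Ifit3b is also uncertain, because it shares sequence with Ifit3. Spearman's rho between control TPM and the log2 fold change was -0.62 across the 50 genes, and -0.32 when the null-labelled TPM was used in place of the control TPM. Both are descriptions across genes that share libraries, and the fold change contains the level it is set against. Exceptions ran in both directions: Slfn8 and Epsti1 were scarce in controls and overlapped, while Isg15 and Rsad2 were above 5 TPM in controls and differed 6.32 and 3.30 times.

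**Figure D4:**
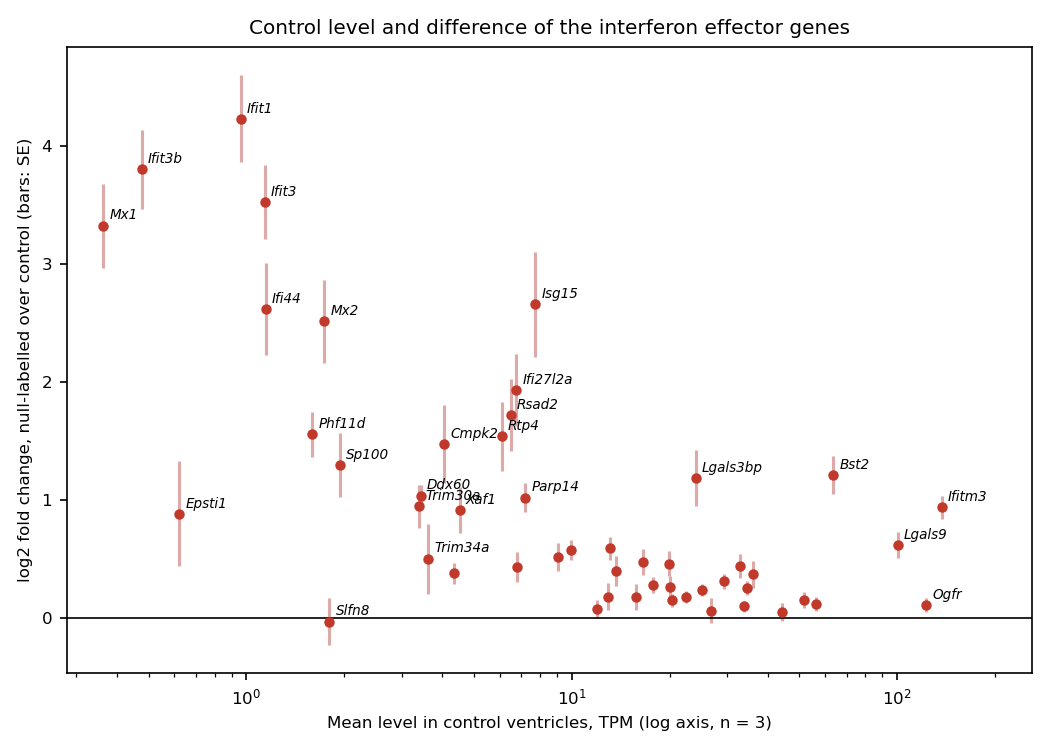
Log2 fold change of each of the 50 genes (y axis) against its mean level in control ventricles, in TPM on a log axis (x axis), with the standard error of the fold change as a bar. Genes below 2 TPM in the controls reach a log2 fold change of 4.23, and Ifitm3 lies at the right with 137 TPM and 0.94.

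Other genes of the pathway were taken from lists of interferon genes outside the 50. The 21 interferon genes themselves were at the limit of detection: 15 had no count in any library, and none had more than 2 counts in any library, so none could be tested. Ifnb1, interferon beta, had 1 count in null 3 and 0 in the others. At this depth 3 counts equal 0.0677 to 0.0852 CPM, so lower levels cannot be told from absence. Fewer cells of a type and less RNA per cell cannot be told apart in whole ventricle, so a small number of cells making interferon would not be seen.

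Among 19 interferon receptors, JAK-STAT proteins and interferon regulatory factors, 5 rose in the null-labelled ventricles and the other 14 did not pass, where 2.43% of all genes rose and 2.98% fell (edgeR quasi-likelihood test, adjusted over all genes). Irf7, which drives interferon genes and is itself induced by interferon, had 25.2, 12.7 and 17.5 CPM in the null-labelled libraries, against 4.64, 2.75 and 2.83 CPM in the controls (2.42 ± 0.35, edgeR adjusted p = 0.0254). Irf9 rose by 0.65 ± 0.13, Stat3 by 0.29 ± 0.05 and Jak2 by 0.20 ± 0.05, with edgeR adjusted p of 0.0325, 0.0178 and 0.0390. The groups did not overlap for any of these named genes. Of the 19, 7 had all null-labelled libraries above all controls and 1 had all below, where 12.7% and 13.9% of all genes did. The interferon receptor chain Ifnar1 had a log2 fold change of 0.03 ± 0.03 and Stat2 one of 0.29 ± 0.15, and neither passed the test (edgeR adjusted p = 0.626 and 0.334).

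Of 6 feedback inhibitors, 1 rose, where 2.43% of all genes rose, and the other 5 did not pass. The median log2 fold change of the 6 was 0.08. Usp18, which removes Isg15 from proteins and blocks the receptor, had 12.9, 7.68 and 10.9 CPM in the null-labelled libraries, against 1.73, 0.750 and 0.962 CPM in the controls, with no overlap (3.16 ± 0.33, edgeR adjusted p = 0.00574). Socs1, another inhibitor, was 0.952 ± 0.428 CPM in the null-labelled libraries and 0.909 ± 0.409 CPM in the controls and did not pass (edgeR adjusted p = 0.945).

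Of 57 other interferon response genes that could be tested, 18 rose, where 2.43% of all genes rose, and the other 39 did not pass. They include the 2′-5′ oligoadenylate synthetase genes Oas1a, Oas1b, Oas2, Oas3, Oasl1 and Oasl2, the RNA sensors Ifih1, Ddx58 and Dhx58, the immunoproteasome genes Psmb8 and Psmb9 and the peptide transporter Tap1. The others were Eif2ak2 (the RNA-activated kinase PKR), the guanylate-binding proteins Gbp2 and Gbp3, the chemokine Cxcl10, Casp1 and Nub1. Oasl1 had 4.58, 2.78 and 4.09 CPM in the null-labelled libraries, against 0.727, 0.278 and 0.481 CPM in the controls (2.91 ± 0.32, edgeR adjusted p = 0.00226). Tap1 had 9.13, 7.51 and 9.08 CPM in the null-labelled libraries, against 3.91, 3.06 and 3.48 CPM in the controls (1.30 ± 0.13, edgeR adjusted p = 0.00105). In both genes all null-labelled libraries were above all controls, as for each of the 18. The 18 were called on these same libraries, so this adds no separate evidence. Of the 57, 29 had all null-labelled libraries above all controls and 1 had all below, where 12.7% and 13.9% of all genes did.

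Relatives of the 50 genes by sequence or family were listed as well. Of 49 tested, 2 rose, Slfn4 (1.99 ± 0.34, edgeR adjusted p = 0.0131) and Herc2 (0.13 ± 0.03, 0.0491), and 2 fell, Dtx3 (-0.26 ± 0.04, 0.0137) and Adarb1 (-0.30 ± 0.05, 0.00804), counts that lie near the 2.43% of all genes that rose and the 2.98% that fell. The median log2 fold change of the relatives was 0.02, beside 0.51 for the 50 genes and -0.0040 for all genes. They ran from -0.71 to 1.99, and 3 of the 49 were more than 2 times as high, against 0.952% of all genes.

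**Figure D5:**
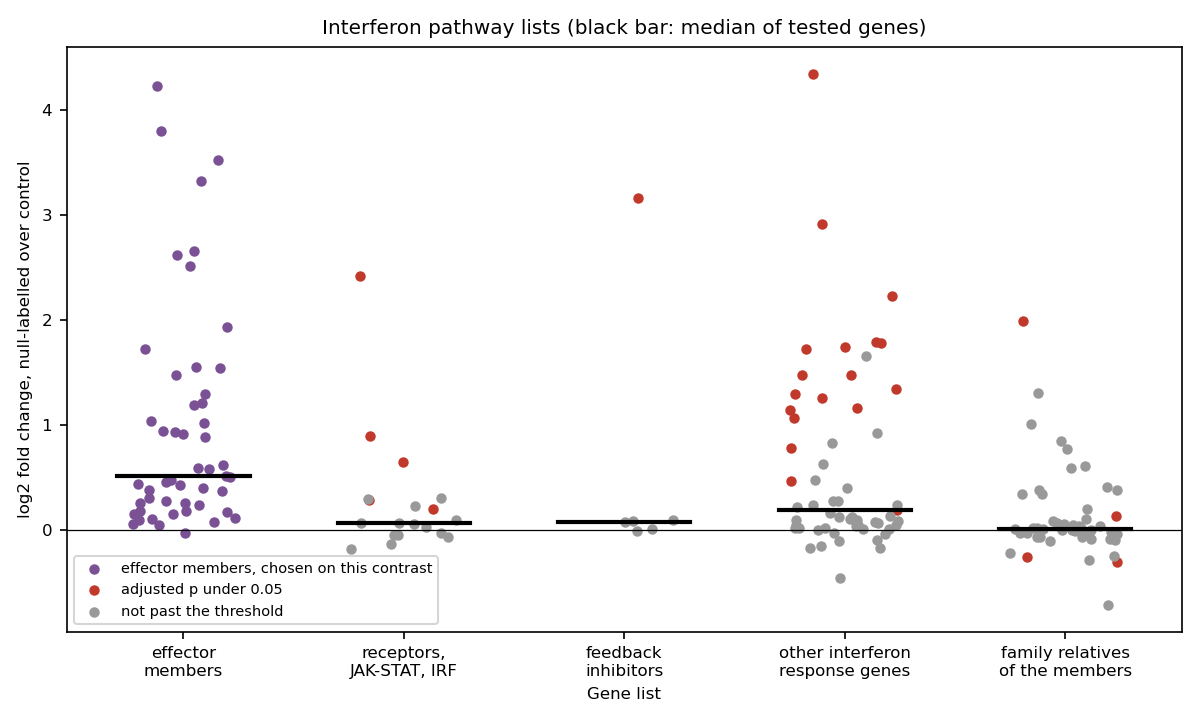
Log2 fold change of the tested genes in each pathway list (y axis), null-labelled over control, with the lists along the x axis, 1 point per gene, a black bar at the median, and the 50 effector genes chosen on this contrast shown for scale. Usp18 at 3.16 and Irf7 at 2.42 stand apart from the other genes of their lists. The relatives have a median of 0.02 and run from -0.71 to 1.99.

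Markers of other cell types moved with the groups as well. Summed macrophage markers (14 genes) lay between 127 and 157 CPM in the null-labelled libraries, against 100 to 114 CPM in the controls, and 5 of the 14 rose: Cx3cr1, C1qa, C1qb, C1qc and Mrc1, where 2.43% of all genes rose. The exact two-sided permutation p of the sum was 0.1, the smallest that 3 libraries against 3 allow. Endothelial markers (8 genes) summed to between 1528 and 1652 CPM in the null-labelled libraries, against 1685 to 1873 CPM in the controls, and 4 of the 8 fell: Pecam1, Tek, Tie1 and Egfl7, where 2.98% of all genes fell. Fibroblast markers (7 genes) summed to between 5619 and 6210 CPM in the null-labelled libraries, against 4654 to 5379 CPM in the controls, and 3 of the 7 rose: Pdgfra, Tcf21 and Col1a1, where 2.43% of all genes rose. The exact permutation p was 0.1 for both sums.

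Lymphocyte and dendritic cell markers (14 genes) were low, at 1.91 to 2.15 CPM in the null-labelled libraries and 1.11 to 1.67 CPM in the controls in sum, with no overlap (exact permutation p = 0.1). No marker of these lists was at 0 in every library, and 1 of the 14 lymphocyte and dendritic cell markers had at most 2 counts in each. Summed cardiomyocyte markers, which define the labelled tissue, overlapped at 69166 to 70867 CPM in the null-labelled libraries and 67084 to 72946 CPM in the controls (exact permutation p = 1). Of these 10 genes, 1 fell (Actc1) and 0 rose, where 2.98% of all genes fell and 2.43% rose. Erythroid markers summed to 1202 to 1963 CPM in the null-labelled libraries and 1739 to 5059 CPM in the controls, with overlap (exact permutation p = 0.3). Liver markers summed to 2.09 to 4.60 CPM in the null-labelled libraries and 0.545 to 14.2 CPM in the controls, with overlap (exact permutation p = 1). The part of these markers in the levels of the interferon genes was not tested. Macrophage marker sums were 157, 145 and 127 CPM in null 1, null 2 and null 3.

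Without null 1 and null 3, 1 null-labelled library remained, assumed to vary like the controls. This library, null 2, was high in Xist and low in Ddx3y, as was control 3, while control 1 and control 2 were the reverse. A part of sex in this comparison was not tested. Of the 50 genes, 47 then stayed above a log2 fold change of 0 with a median of 0.37, and 3 had an adjusted p under 0.05 (Ifit1, Ifit3 and Ifit3b), where 0.138% of all genes stood on the higher side. Of the 132 pathway genes tested outside the 50, 94 then had a log2 fold change above 0. Their median was 0.068, against -0.0051 over all genes tested in this fit. With all libraries, edgeR called 28 of the 131 pathway genes tested (26 higher and 2 lower), where it called 5.41% of all genes in either direction. DESeq2 called 30 of the 130 to which it gave an adjusted p, where it called 7.39% of all genes, and limma-voom 27 of 131, where it called 5.35%; DESeq2 and limma-voom were not run without null 1 and null 3. Leaving out 1 library gave 12 pathway genes without null 3 or control 2, and 17 without null 1. Of all genes, these fits called 1.86% without null 3, 2.67% without control 2 and 2.59% without null 1. Over all genes, 0.342% were called in either direction without null 1 and null 3.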

How the data were processed

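The authors deposited unnormalised read counts for each gene in a separate file per library. Tools named in the submitters' processing notes are HTSeq 0.6.1p1, STAR, DESeq2 and cutadapt 1.13, on build mm10; the strand setting is not given in the sources used here. Gene identifiers were matched to GENCODE M21 of the same build (24991 of 25006). The 50 genes and all gene lists were chosen with earlier results of these data known. Counts were filtered with filterByExpr, scaled with TMM factors (trimmed mean of M values) and tested with edgeR 4.0.16 (quasi-likelihood, robust, group as the only term) in R 4.3.3, adjusted over all 14815 genes; a gene was called at an adjusted p under 0.05. TPM was computed from exon length. Intervals and the floor of 3 counts cover counting error only. The test was checked on simulated data. Values in every library are given for the first gene of each role group and the 20 genes with the largest log2 fold changes. Outside that rule, they are also given for Ifit2 and Trim34a. Pathway genes named are those called and up to 4 more of smallest p per list, with Ifnar1, Stat2 and Ifnb1 always named. Ifitm2, Slfn9 and Socs1 were named after their values were seen. Identity of proteins of near copies was planned and not run, because no protein sequences were used here. Alternatives were other scalings and filters, DESeq2 1.42.0, limma-voom (limma 3.58.1), a replicate block, leaving out each library, and leaving out null 1 and null 3. One gene counted among the pathway genes is not reported here by name.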

Additional observations from a re-analysis of the deposited data

How the results depend on the processing

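Across 13 alternatives to the main processing, 511 of the values for single effector genes kept their direction and their side of the threshold, 111 kept their direction and lost the threshold, 19 gained it, and 8, in 4 genes, changed sign around 0. Over the fits that left out libraries, Ube2l6 ran from -0.013 (null 1 omitted) to 0.11, and Nmi from -0.011 (null 1 and null 3 omitted) to 0.27. Slfn8 ran from -0.17 to 0.12, being 0.12 with control 2 omitted, 0.04 with null 2 omitted and 0.02 with null 3 omitted. Ifi27 ran from -0.060 to 0.14, being -0.0039 with control 3 omitted, -0.03 with null 1 omitted and -0.060 with null 1 and null 3 omitted. Leaving out 1 library at a time gave 13 to 30 effector genes called, against 29 with all 6. The counts were 13 without null 3, 15 without control 2 or control 3, 16 without null 1 and 18 without null 2. Over the whole table, 258 to 942 genes were called (1.72% to 6.27%), against 801 (5.41%) with all libraries. Of the pathway genes, 12 to 26 were called, against 28 with all libraries. Of the effector genes, 11 were called in each of these 6 fits: Ifit1, Ifit3, Ifit3b, Uba7, Mx1, Ifitm3, Tor3a, Parp14, Ddx60, Ifi27l2a and Phf11d. The other 18 called with all libraries were lost in at least 1 fit. Isg15, Rsad2 and Ifi44 were each called in 2 of the 6, and Daxx in 0. The share of all genes called in all 6 fits was not computed, and the fits share libraries. The 11 therefore describe the list and carry no test. Without null 1 and null 3 the counts were 3, 52 and 0 (edgeR; 33 pathway genes at an unadjusted p under 0.05). The median of the effector genes stayed between 0.37 and 0.59. Other filters, scalings and tests called 22 to 34 effector genes, where they called 4.81% to 7.39% of all genes. The longer promoter pattern was found in 24.4% of the 41 promoters, against 43.9% for the shorter one. Over all genes tested, deviations of same-numbered libraries from their group means had correlations of -0.064, -0.047 and -0.12. For the 50 genes, null 1 and control 1 were most often the highest of their groups, as given above. With so few libraries, these values cannot settle whether replicate numbers pair the libraries. With the replicate block, 570 genes (3.85% of all tested), 32 effector genes and 25 pathway genes were called. The cause of these shifts was not tested.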

Other observations

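On chromosome 7, Trim34a lies among related Trim genes, of which Trim30a was apart between the groups, as given above, while Trim12a, Trim5 and Trim34b overlapped. Trim12a had 234, 341 and 217 counts in the null-labelled libraries, against 372, 132 and 132 in the controls. Trim5 had 49, 71 and 55 counts in the null-labelled libraries, against 129, 47 and 31 in the controls. Trim34b went the other way, with 35, 2 and 29 counts in the null-labelled libraries, against 3, 18 and 20 in the controls. Null 2 and control 1 were the libraries that were high for Trim12a and Trim5 and low for Trim34b, and Trim34a was highest in the same 2 libraries of their groups. These genes were chosen after their values were seen, and the pattern was not tested.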
